A study of Mus musculus with 64 samples.

Results

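The cytosolic heat shock chaperones described here are 10 genes: Hspa1a, Hspa1b, Hspa8, Hsp90aa1, Hsp90ab1, Hsph1, Dnajb1, Dnaja1, Hspb1 and Hsf1. They were taken by symbol from a count table of 45708 genes in 64 RNA-seq libraries of mouse microglia, and all 10 passed the filter on low counts that left 18413 genes. They were chosen by symbol, and the choice was made with the measured cuprizone and PLX3397 values of these libraries in view: cuprizone against naive in KO and Het, KO against Het under cuprizone, and PLX3397 against naive. Those comparisons are therefore given as measurements, with no test. Tests are kept for comparisons that were not themselves used in the choice, although most of them share libraries with those used.

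The study removed RISP, the Rieske iron-sulfur protein of respiratory complex III that Uqcrfs1 encodes, and the labels name its libraries RISP knockout (KO), heterozygous (Het) or wild type (WT). Adult mice received the demyelinating agent cuprizone (6 KO and 4 Het libraries), were in the depletion phase of PLX3397 (2 KO, 2 Het, 4 WT), were in the repopulation phase after it (4 KO, 4 Het, 4 WT), or were naive (13 KO, 13 Het, 5 WT). A further 3 naive Het libraries came from old mice. PLX3397 inhibits the receptor Csf1r, on which microglia depend to survive. Microglia were sorted from whole brain with antibodies to CD45 and CD11b and the viability dye DAPI. Counts on a CreERT2 row were present in every library, WT included (171 to 929 CPM, counts per 1000000 of the scaled library), and a tdTomato row carried 176 to 291 CPM in WT and 0 to 347 CPM in KO and Het, so the WT libraries are not of mice free of transgenes. The promoter that drives CreERT2, the doses, the days of treatment and the sexes are not given in the sources used here. The labels do not say whether each library is a separate animal, so p-values measure the spread between libraries, which may in part be technical. In sorted bulk RNA, a change in which cells make up the sample and a change in RNA per cell cannot be told apart.

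Heat shock proteins are chaperones: they hold unfolded proteins and help them fold or be degraded. In resting cells HSF1, the transcription factor of the response, is kept inactive in complexes with HSP70 and HSP90. Misfolded proteins draw those chaperones away, HSF1 forms trimers, binds repeats of nGAAn in promoters and switches on the inducible genes, of which Hspa1a, Hspa1b, Hspb1, Dnajb1 and Hsph1 are textbook examples. In microglia the same genes, together with immediate early genes such as Fos and Jun, are also known to come on while tissue is dissociated and sorted.

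The libraries fell into 4 batches by depth and by the share of counts on the noncoding transcripts Gm26917 and Yam1. The naive libraries KO 1 to 5, Het 1 to 4 and WT 1 to 5 and all PLX3397 libraries had less than 1% there (34 libraries, totals of 9.32 M to 16.3 M counts, where M is 1000000) and are called low-noncoding below. The middle-depth batch held naive KO 6 to 11 and Het 5 to 11 (6.38 M to 11.7 M), and the deep batch naive KO 12 and 13, Het 12 and 13 and the old Het libraries (15.9 M to 24.0 M). All cuprizone libraries were shallow (2.70 M to 5.10 M) and no naive library was, so an effect of cuprizone and one of the shallow batch cannot be told apart. Uqcrfs1 was low in KO throughout: 0 to 1.47 CPM in cuprizone KO against 10.3 to 12.9 CPM in cuprizone Het, and over all batches 0 to 13.5 CPM in KO, 7.01 to 51.9 in Het and 34.4 to 65.5 in WT. The 8 microglia markers summed to 15960 to 50410 CPM, and markers of other cells varied widely between libraries. The 6 oligodendrocyte markers summed to 56.9 to 2285 CPM, the 7 markers of border macrophages to 25.9 to 1268, the 5 endothelial markers to 31.1 to 565, the 6 astrocyte markers to 101 to 379, the 7 neutrophil markers to 0 to 111, the 4 monocyte markers to 2.38 to 67.7, the 5 neuron markers to 0.312 to 51.9 and the 6 lymphocyte markers to 0 to 11.8 CPM.

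The promoter windows of Hspa1a, Hspa1b and Hspb1 are shown because each holds a match to the letters HSF1 recognises and because those of Hspa1a and Hspa1b are nearly one sequence. The windows are RefSeq sequence (GRCm38.p6), read 5′ to 3′ on the gene's strand, and capitals mark each match to GAANNTTC or TTCNNGAA, the inverted pairs of the heat shock repeat.
Hspa1a, chr17:34972157-34972406, minus strand: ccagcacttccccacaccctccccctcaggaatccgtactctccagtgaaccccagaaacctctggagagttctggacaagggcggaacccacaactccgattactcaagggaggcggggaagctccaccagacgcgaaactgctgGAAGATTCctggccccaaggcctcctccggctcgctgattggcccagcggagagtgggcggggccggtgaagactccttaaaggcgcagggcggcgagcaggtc
Hspa1b, chr17:34959239-34959488, minus strand: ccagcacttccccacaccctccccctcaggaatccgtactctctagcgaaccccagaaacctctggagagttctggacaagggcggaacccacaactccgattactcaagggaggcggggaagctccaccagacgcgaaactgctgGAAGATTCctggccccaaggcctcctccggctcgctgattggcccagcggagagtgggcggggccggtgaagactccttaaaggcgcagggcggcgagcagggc
Hspb1, chr5:135887759-135887918, plus strand: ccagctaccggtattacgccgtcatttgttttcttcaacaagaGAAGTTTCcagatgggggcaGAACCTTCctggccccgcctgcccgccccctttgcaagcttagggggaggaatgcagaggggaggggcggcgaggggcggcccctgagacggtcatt
Over 250 bases the Hspa1a and Hspa1b windows were 98.8% identical, with the 3 differences C44T, T47C and T249G (the Hspa1a base first, positions counted from 1 at the 5′ end of the window). Each holds 1 match, which begins 104 bases upstream of the annotated start in both. The Hspb1 window holds 2, at 117 and 97 bases upstream. A match began 124 bases upstream of 1 of the 3 starts listed for Dnaja1, and 33 and 54 bases upstream of the 2 starts listed for Hsph1. In both genes these bases lie inside the gene as GENCODE M21 annotates it, so the windows are not shown. Neither window of Dnajb1 had one. Of 32851 promoter windows of 250 bases, 6.69% hold GAANNTTC, 7.17% hold TTCNNGAA and 12.8% hold either. Each motif is its own reverse complement, so both strands are searched at once. Promoter entries were present for 6 of the 10 members.

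In cuprizone libraries the 5 HSP70 and HSP90 genes had the highest levels per kilobase of exon in either genotype. In cuprizone Het libraries the constitutive HSP70, Hspa8, averaged 687 ± 167 CPM per kb, Hspa1b 633 ± 284, Hspa1a 597 ± 242 and Hsp90ab1 569 ± 100 (SD, n = 4). Hsf1, at 4.33 ± 0.44 CPM per kb, was the lowest there. In cuprizone KO libraries Hspa8 averaged 399 ± 76 CPM per kb, Hsp90ab1 365 ± 38, Hspa1b 167 ± 139 and Hspa1a 150 ± 119, and Hspb1 was lowest at 2.49 ± 0.82 (SD, n = 6). Under cuprizone the inducible HSP70 pair thus stood next to Hspa8 in Het libraries but below Hsp90ab1 in KO libraries. In middle-depth naive Het libraries Hspa8 led with 284 ± 85.3 CPM per kb, while Hspa1a had 24.6 ± 13.4 and Hspa1b 11.98 ± 20.8 (SD, n = 7). There the J proteins, with 25.3 ± 6.28 (Dnajb1) and 14.4 ± 5.36 CPM per kb (Dnaja1), stood at the level of the inducible HSP70s.

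Hspa1a (chr17:34969190-34972156, minus strand) and Hspa1b (chr17:34956436-34959238, minus strand) are neighbouring copies that encode the inducible HSP70. Their reads can be split between them by the counting, so each is uncertain alone and the sum of both is given beside it. Hspa1a made up 38.7 to 69.0% of the sum in 51 libraries but 0 to 96.5% in the 13 middle-depth libraries, where the sum itself was only 10.3 to 301 CPM. In cuprizone KO libraries Hspa1a had 232 CPM at the lowest, a median of 294 and 1141 at the highest. Cuprizone Het libraries 1 to 4 had 2549, 2210, 1232 and 1099 CPM. The middle-depth naive KO libraries had 0 to 36.9 CPM (median 16.3), and the naive Het ones 24.9 to 139 CPM (median 54.8).

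**Figure D1:**
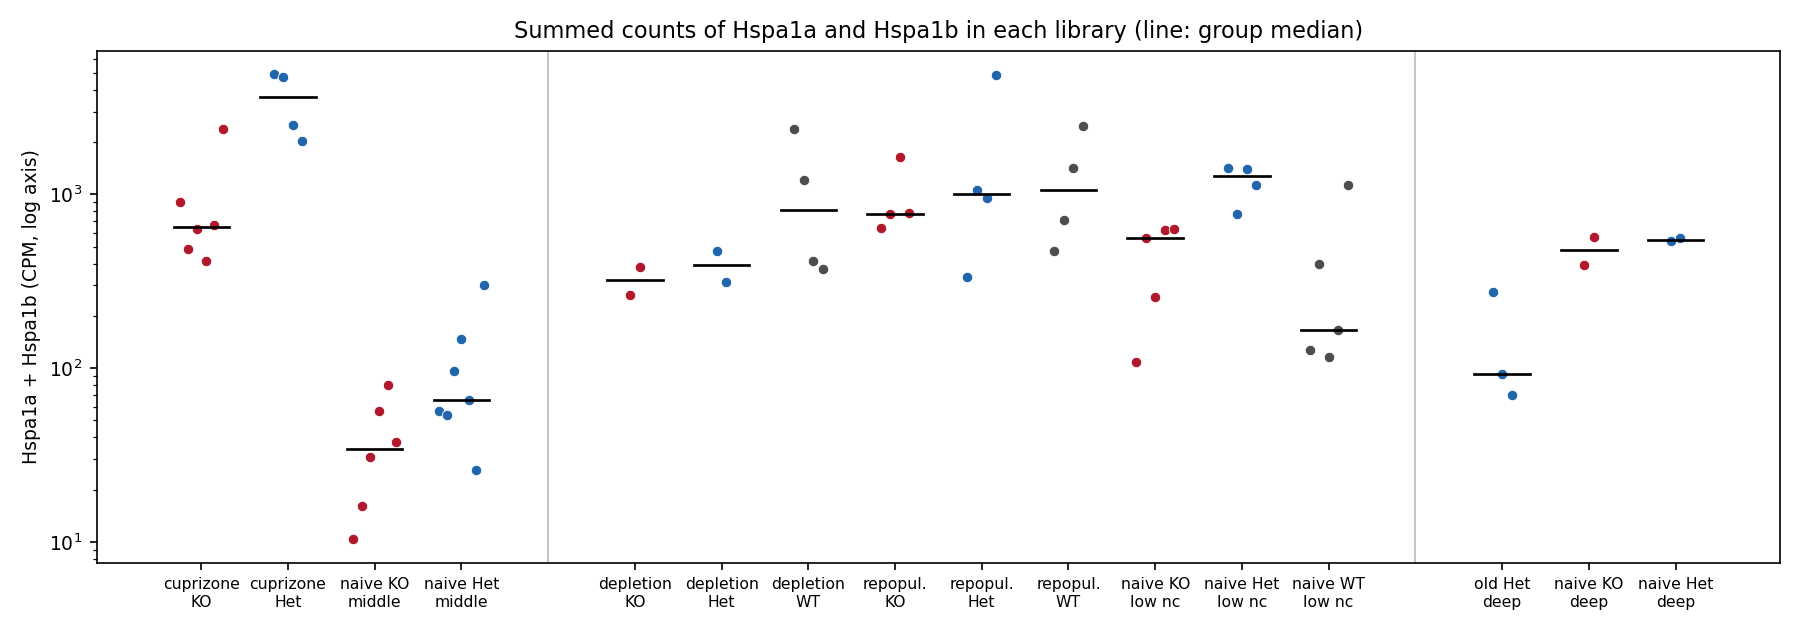
The sum of Hspa1a and Hspa1b in each library, in CPM on a log scale, by treatment, batch and genotype; "low nc" stands for the low-noncoding batch, points are libraries (KO red, Het blue, WT grey) and lines are medians. The cuprizone KO libraries lie at 412 to 2380 CPM and the cuprizone Het libraries at 2018 to 4933 CPM, both above the middle-depth naive libraries.

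Both genotypes had more inducible HSP70 RNA under cuprizone than the naive libraries set beside them, and no cuprizone library overlapped its naive group. The sum was higher by 4.56 ± 0.67 on the log2 scale in cuprizone KO than in naive KO (values after ± in such differences are SE), and by 5.06 ± 0.66 in cuprizone Het than in naive Het. The individual genes gave 4.66 ± 0.68 (Hspa1a) and 4.45 ± 0.80 (Hspa1b) in KO, and 4.601 ± 0.65 and 5.71 ± 0.81 in Het. The middle-depth naive libraries were the lowest of the naive batches. The naive KO libraries of the low-noncoding batch (108 to 629 CPM, median 560.2) and of the deep batch (390.3 and 569 CPM) overlap cuprizone KO, which had a median of 647 CPM. The naive Het libraries of those batches (771 to 1427 CPM, and 538 and 559 CPM) lie below all cuprizone Het libraries. The batches differ in depth and noncoding share, and the fold over naive libraries depends on which of them is set beside cuprizone. Within the comparison with the middle-depth batch, library naive Het 11, with 162 CPM of Hspa1b where the other 6 had 1.08 to 38.3, weighs on this value: without it the Hspa1b difference in Het was 7.21. The level reached was lower in KO: its sum was 1.96 ± 0.64 log2 units below that of Het under cuprizone. The groups overlapped in 1 library, cuprizone KO 6, whose 1141 CPM of Hspa1a exceeded the lowest Het library, and without it the Hspa1a difference was -2.56 instead of -1.996 ± 0.64.

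Hspa8 (chr9:40800984-40810087, plus strand), the HSP70 that cells make at all times, showed a smaller difference. Cuprizone KO libraries held 1264 to 2274 CPM (median 1706), and Het libraries 3819, 2115, 3149 and 2736 CPM. The naive libraries of the middle-depth batch held 863 to 1668 CPM (KO, median 1314) and 888 to 1978 CPM (Het, median 1142). Every cuprizone Het library was thus above every naive Het library, with a log2 difference of 1.28 ± 0.20, while the KO groups overlapped (0.43 ± 0.19). Under cuprizone, KO was 0.78 ± 0.21 log2 units below Het, with KO 6 above the lowest Het library.

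Hsp90aa1 (chr12:110690605-110702728, minus strand) encodes the stress-inducible cytosolic HSP90. Its cuprizone KO libraries had 282 to 497 CPM (median 312), and Het libraries had 2203, 1286, 1060 and 1075 CPM. The naive middle-depth libraries had 212 to 334 CPM in KO (median 259) and 290.2 to 449.8 CPM in Het (median 384). The cuprizone Het libraries stood apart from these other groups, at 3.74 times the middle-depth naive Het level (log2 difference 1.91 ± 0.20). The deep naive Het libraries, given below, were higher than the middle-depth ones. Cuprizone KO libraries overlapped middle-depth naive KO libraries (0.36 ± 0.19). Cuprizone KO libraries were lower than cuprizone Het libraries 4.10-fold, without overlap (log2 difference -2.04 ± 0.21).

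Hsp90ab1 (chr17:45567775-45573271, minus strand), the constitutive HSP90, had 938 to 1206 CPM in cuprizone KO (median 1143) against 1961, 1975, 1452 and 1442 CPM in cuprizone Het. The groups did not overlap, and the log2 difference was -0.64 ± 0.19, much smaller than that of its inducible partner. Relative to naive libraries it differed by 0.24 ± 0.17 in KO and by 1.14 ± 0.18 in Het.

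Dnajb1 (chr8:83608193-83612653, plus strand) and Dnaja1 (chr4:40722150-40737149, plus strand) are J proteins, which bring substrates to HSP70 and start its ATPase cycle. Dnajb1 had 38.1 to 95.7 CPM in cuprizone KO (median 51.6) and 296, 249, 239 and 235 CPM in cuprizone Het. Even the highest KO library was thus below all Het libraries by a wide margin, and the log2 difference was -2.13 ± 0.31. The naive libraries had 29.1 to 73.4 CPM (KO, median 34.7) and 52.9 to 111 CPM (Het, median 81.5), which put the cuprizone difference at 0.50 ± 0.28 in KO and 1.65 ± 0.29 in Het. Dnaja1 had 73.0 to 111 CPM in cuprizone KO (median 90.1) against 369, 255, 175 and 233 CPM in cuprizone Het, also without overlap (log2 difference -1.50 ± 0.33). Its naive Het libraries reached 220.2 CPM, above the lowest cuprizone Het library.

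Hsph1 (chr5:149614287-149636376, minus strand) encodes HSP110, which exchanges the nucleotide bound to HSP70. It had 37.6 to 112 CPM in cuprizone KO (median 78.5) and 378, 248, 281 and 157 CPM in cuprizone Het, with no overlap and a log2 difference of -1.84 ± 0.55. Its naive spread was wide: 30.1 to 162 CPM in KO (median 48.9) and 19.1 to 168 CPM in Het (median 28.7). The cuprizone difference in Het was 2.47 ± 0.53 and became 3.26 without library naive Het 11, the highest of that group.

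Hspb1 (chr5:135887919-135889563, plus strand) encodes a small heat shock protein that holds unfolded proteins without ATP. Cuprizone KO libraries 1 to 6 had 10, 9, 12, 12, 6 and 9 reads (1.52 to 3.54 CPM, median 2.52). Cuprizone Het libraries had 318, 112, 107 and 122 reads, or 93.7, 35.0, 28.2 and 32.7 CPM. KO was 18.6-fold lower (log2 difference -4.22 ± 0.57), the widest gap among the 10 genes. In the middle-depth naive libraries KO 6 to 11 had 0, 6, 0, 2, 0 and 2 reads, and Het 5 to 11 had 39, 2, 27, 36, 32, 7 and 42. Against these middle-depth libraries the cuprizone difference was 3.66 ± 0.74 in KO and 3.91 ± 0.51 in Het. In KO it rested on a naive level of 10 reads in all and became 4.67 without naive KO 7, which held 6 of them. It also depends on the naive batch. The low-noncoding and deep naive KO libraries, given below, lay within or above the cuprizone KO range. Some low-noncoding naive Het libraries lay within the cuprizone Het range.

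Hsf1 (chr15:76477422-76501913, plus strand), the regulator itself, had overlapping groups in all 3 cuprizone comparisons. Cuprizone KO libraries had 25.2 to 39.4 CPM (median 30.1) and cuprizone Het libraries 26.5, 30.6, 33.8 and 32.1 CPM. The log2 difference was 0.00 ± 0.15, whose sign depended on the scaling. Against naive libraries the difference was 0.19 ± 0.14 in KO and 0.48 ± 0.15 in Het. HSF1 is known to be switched on mainly as a protein, and its RNA level does not measure its activity.

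**Figure D2:**
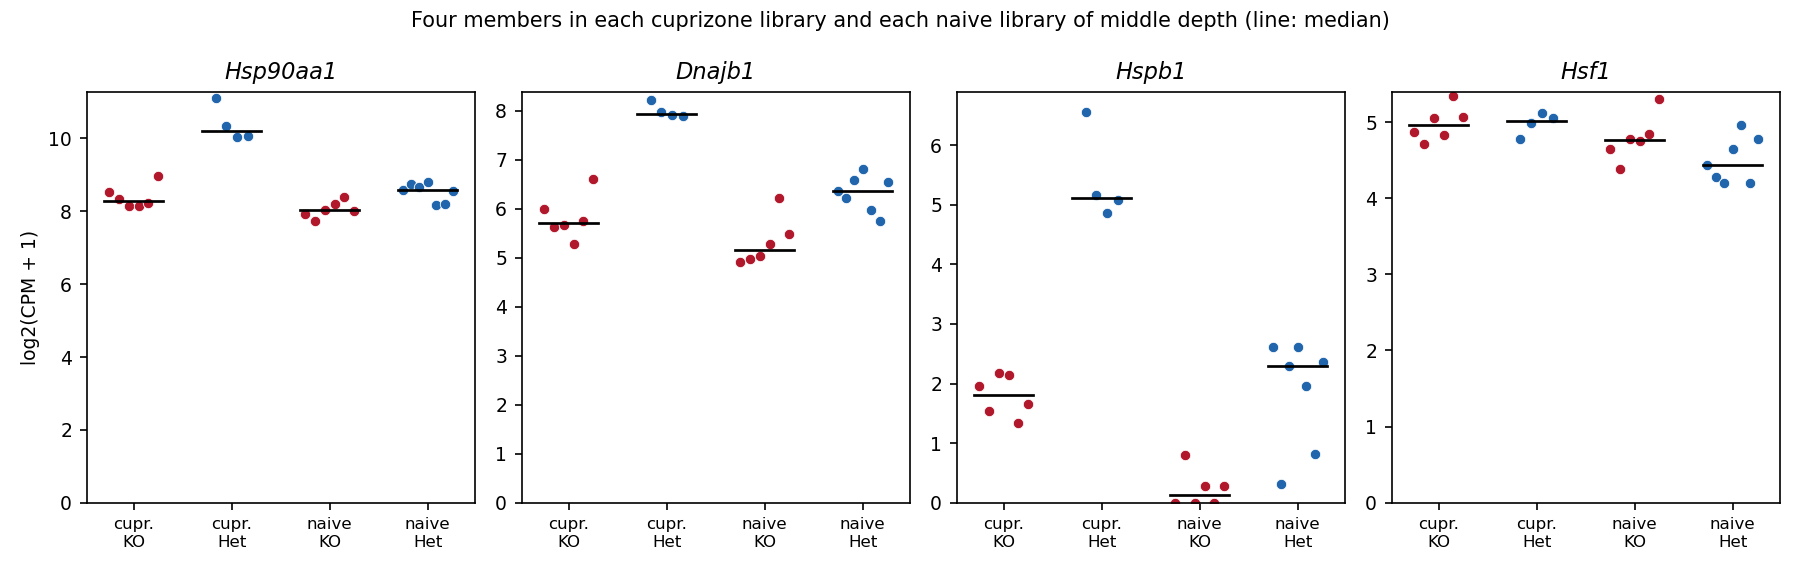
Hsp90aa1, Dnajb1, Hspb1 and Hsf1 in each cuprizone library and each middle-depth naive library, as log2(CPM + 1); points are libraries (KO red, Het blue) and lines are medians. The cuprizone KO libraries lie below all cuprizone Het libraries for the first 3 genes (282 to 497 against 1060 to 2203 CPM for Hsp90aa1) and among them for Hsf1.

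Counted over the 10 genes, 3 were at least 2-fold higher in cuprizone KO than in naive KO (6.02% of all genes tested), and the same 3 did not overlap (0.424%). In Het 9 were at least 2-fold higher (6.76%) and 7 did not overlap (1.67%). Under cuprizone, 7 were at least 2-fold lower in KO than in Het (13.7%), and 6 did not overlap (3.8%). The median log2 difference of the members was 0.39 in KO (-0.09 over all genes), 1.78 in Het (-0.16 over all genes) and -1.88 for KO against Het (0.02 over all genes). The genes were picked with these 3 comparisons in view, so the counts describe the choice and nothing is read from them. Comparisons that share libraries are given side by side and were not compared with each other.

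**Figure D3:**
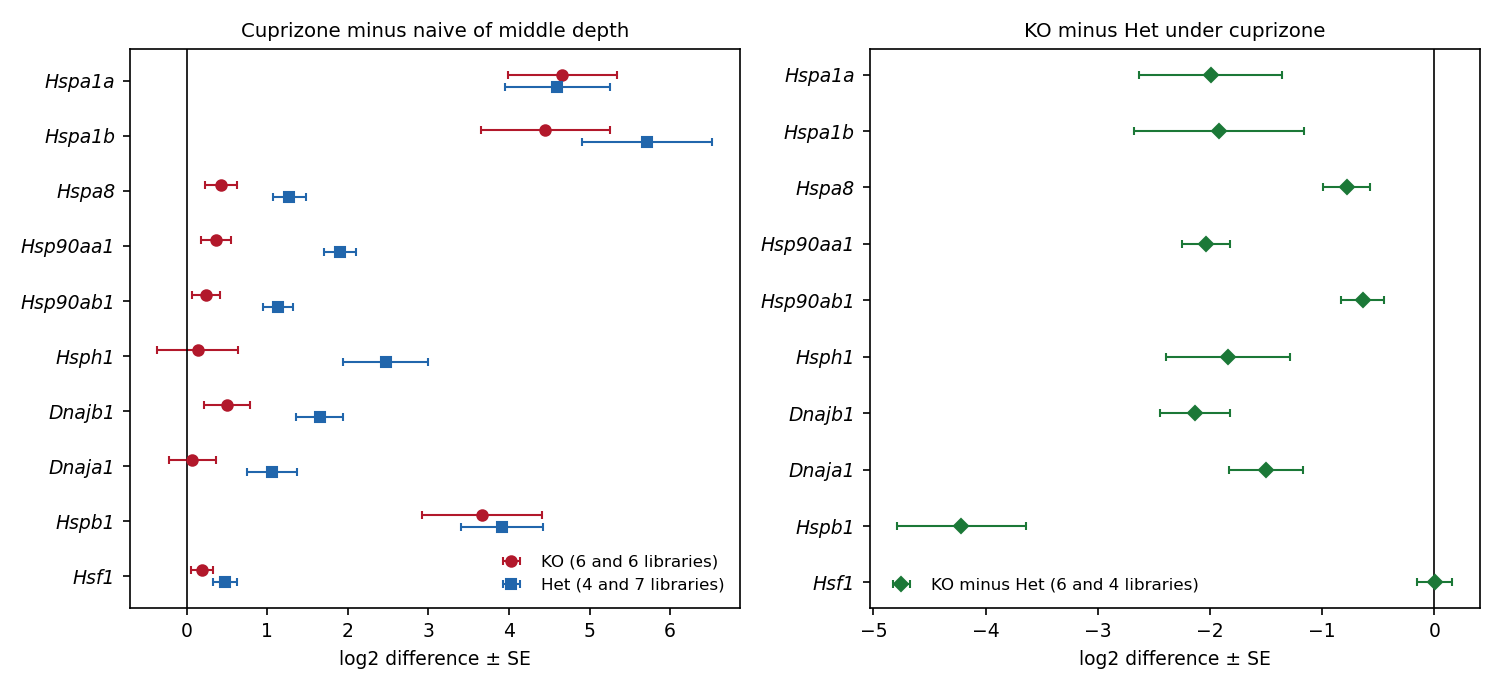
Log2 differences of the 10 members in KO against Het under cuprizone, in cuprizone against naive KO and in cuprizone against naive Het; bars are SE of the fit. Hspa1a and Hspa1b lie at 4.45 or above in both genotypes, whereas Hsp90aa1, Dnajb1, Hsph1 and Dnaja1 lie at 1.06 to 2.47 in Het and at 0.07 to 0.50 in KO.

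The cuprizone libraries divide by their share of the noncoding transcripts: Het 3 and 4 and KO 5 and 6 had less than 3%, and Het 1 and 2 and KO 1 to 4 more. With less than 3%, 7 of the 10 members were lower in both KO libraries than in both Het libraries (19.2% of all genes tested), with a median log2 difference of -0.88. With more than 3%, 9 of 10 were lower without overlap (12.5%) and the median was -2.28. As above, nothing is read from these counts. Hspb1 was lower in both, at 1.83 CPM in KO against 30.5 CPM in Het (16.7-fold lower) and at 2.94 CPM in KO against 64.3 CPM in Het (21.9-fold lower). Hspa1a overlapped in one of them: with less than 3% it had 298 and 1141 CPM in KO against 1232 and 1099 CPM in Het, and with more than 3% it was 7.77-fold lower in KO. Leaving out each of the 10 cuprizone libraries in turn gave medians of -2.08 to -1.68, the weakest without Het 1.

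Genes that come on when cells are handled also differed between the cuprizone groups. The 20 immediate early and dissociation genes summed to 2630, 1981, 1986, 1893, 14300 and 15240 CPM in cuprizone KO 1 to 6 and to 24410, 20460, 40460 and 52130 CPM in cuprizone Het. Both sums in KO 5 and 6, the libraries with less than 3%, lay far above those of KO 1 to 4. Library by library, the HSP70 sum did not follow in every case. Het 3 and 4 had 2511 and 2018 CPM of it, against 4933 and 4727 CPM in Het 1 and 2. KO 5 had 663 CPM, within the 412 to 904 CPM of KO 1 to 4, and KO 6 had 2380 CPM. All 20 genes were lower in KO than in Het under cuprizone, 19 of them at least 2-fold, with a median log2 difference of -2.44. Against naive libraries 11 were at least 2-fold higher in KO and 17 in Het. Jun differed by -2.28 ± 0.50 between KO and Het, and Zfp36, which destabilises cytokine mRNAs, by -1.66 ± 0.59. The part of these genes in the chaperone differences was not tested. Markers of other cells were present in the same libraries. Oligodendrocyte markers summed to 56.9 to 124 CPM in cuprizone KO and 59.3 to 93.7 CPM in cuprizone Het, against 90.9 to 134 CPM in middle-depth naive KO and 97.8 to 273 CPM in middle-depth naive Het. Border macrophage markers summed to 25.9 to 352 CPM in cuprizone KO and 72.9 to 309 CPM in cuprizone Het, against 125 to 373 CPM in naive KO and 152 to 536 CPM in naive Het. Astrocyte markers summed to 138 to 173 CPM in cuprizone KO and 107 to 129 CPM in cuprizone Het, without overlap, and endothelial markers to 36.8 to 119 CPM in cuprizone KO and 40.6 to 69.3 CPM in cuprizone Het. Some single markers differed more: Aldoc by 2.44 and -3.40 (KO against Het under cuprizone, and cuprizone against naive Het), and in the second of these Slc1a2 by -4.05 and Mbp by -1.33 on the log2 scale. Others of the same lists differed less in that second comparison: Slc1a3 by -0.34, Cnp by -0.50 and Mag by 0.38. Monocyte markers reached 31.3 CPM, neutrophil markers 15.04 CPM and lymphocyte markers 3.13 CPM at most in the cuprizone and middle-depth naive libraries. The part of these cells in the chaperone differences was not tested.

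Chaperones outside the 10 genes are described by list. Of 15 HSP70 co-chaperones, 3 were at least 2-fold lower and 1 at least 2-fold higher (12.1% of all genes) in KO than in Het under cuprizone, with a median of 0.07. Of 13 HSP90 co-chaperones none passed 2-fold, and the median was 0.42. Cdc37, which loads kinases onto HSP90, differed by 0.42 ± 0.13. All 8 subunits of TRiC, the chaperonin that folds actin and tubulin, were positive, with a median of 0.51. The 12 ER chaperones had a median of 0.04, and only Hspa5, the HSP70 of the ER, passed 2-fold (-1.26 ± 0.18; 589 to 871 CPM in KO against 1288 to 2233 CPM in Het). Hspa2, another cytosolic HSP70, differed by -1.69 ± 0.37.

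Naive KO and Het libraries were compared within each batch that holds both. The choice of genes did not use this comparison itself. In the middle-depth batch, however, it follows from the cuprizone comparisons that were used, which share those naive libraries. That batch had a weight of 0.501 in the comparison over all batches. All p-values of members that rest on this batch, those over all batches included, are therefore not independent of the choice and are no support for it. Hspb1, Hspa1a, Dnajb1, Hsp90aa1 and Dnaja1 fell in KO, and none of the 10 rose (7.64% of all genes fell and 9.23% rose at an adjusted p below 0.05, edgeR quasi-likelihood test). Hspb1 fell by 2.66 ± 0.41 on the log2 scale (adjusted p = 1.93e-06). Hspa1a fell by 1.57 ± 0.41 (adjusted p = 0.0043) and the sum with Hspa1b by 1.26 ± 0.40 (adjusted p = 0.022). Hspa1b alone differed by -0.84 ± 0.48, which did not pass (adjusted p = 0.249). The J proteins fell by 0.77 ± 0.19 (Dnajb1, adjusted p = 0.0026) and 0.58 ± 0.20 (Dnaja1, adjusted p = 0.038), and Hsp90aa1 fell by 0.45 ± 0.13 (adjusted p = 0.011). The constitutive genes differed little: Hspa8 by -0.15 ± 0.13 (adjusted p = 0.495) and Hsp90ab1 by -0.06 ± 0.12 (adjusted p = 0.822). Hsph1 differed by -0.11 ± 0.34 (adjusted p = 0.919) and Hsf1 by 0.14 ± 0.09 (adjusted p = 0.320). The Dnaja1 call was lost when any of 9 of the 26 libraries was left out, and comparing the groups without regard to batch left 0 calls.

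In the middle-depth batch Hspb1, Dnajb1 and Hspa1a fell (6.07% of all genes fell), with log2 differences of -3.97 ± 0.68 (adjusted p = 4.32e-05), -0.98 ± 0.27 (adjusted p = 0.0105) and -2.06 ± 0.60 (adjusted p = 0.0157). The ranges still overlapped: Dnajb1 had 29.1 to 73.4 CPM in KO and 52.9 to 111 CPM in Het. In the low-noncoding batch Hspb1 had 14.4, 3.16, 5.62, 6.19 and 7.45 CPM in KO 1 to 5 and 12.6, 11.5, 34.2 and 38.6 CPM in Het 1 to 4, and only KO 1 reached the Het range. Hspa1a had 47.6, 276, 121, 315 and 331 CPM in those KO libraries and 692, 377, 656 and 542 CPM in the Het libraries, without overlap. None of the members passed in the low-noncoding batch (1.25% of all genes fell), although 5 were at an unadjusted p below 0.05 and 5 did not overlap, all lower in KO (4.11%). Hspb1 differed by -1.72 ± 0.53 (adjusted p = 0.0633) and Hspa1a by -1.38 ± 0.67 (adjusted p = 0.351). In the deep batch, with 2 libraries a genotype, none passed (0.57% in either direction) and none was at an unadjusted p below 0.05, and Hspb1 had 3.50 and 2.79 CPM in KO and 2.04 and 6.75 CPM in Het. Whether the KO effect differed between the middle-depth and low-noncoding batches was tested directly: none of the 10 passed (0.543% of all genes did), 3 were at an unadjusted p below 0.05, and Hspb1 differed by -2.25 ± 0.89 (adjusted p = 0.265).

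**Figure D4:**
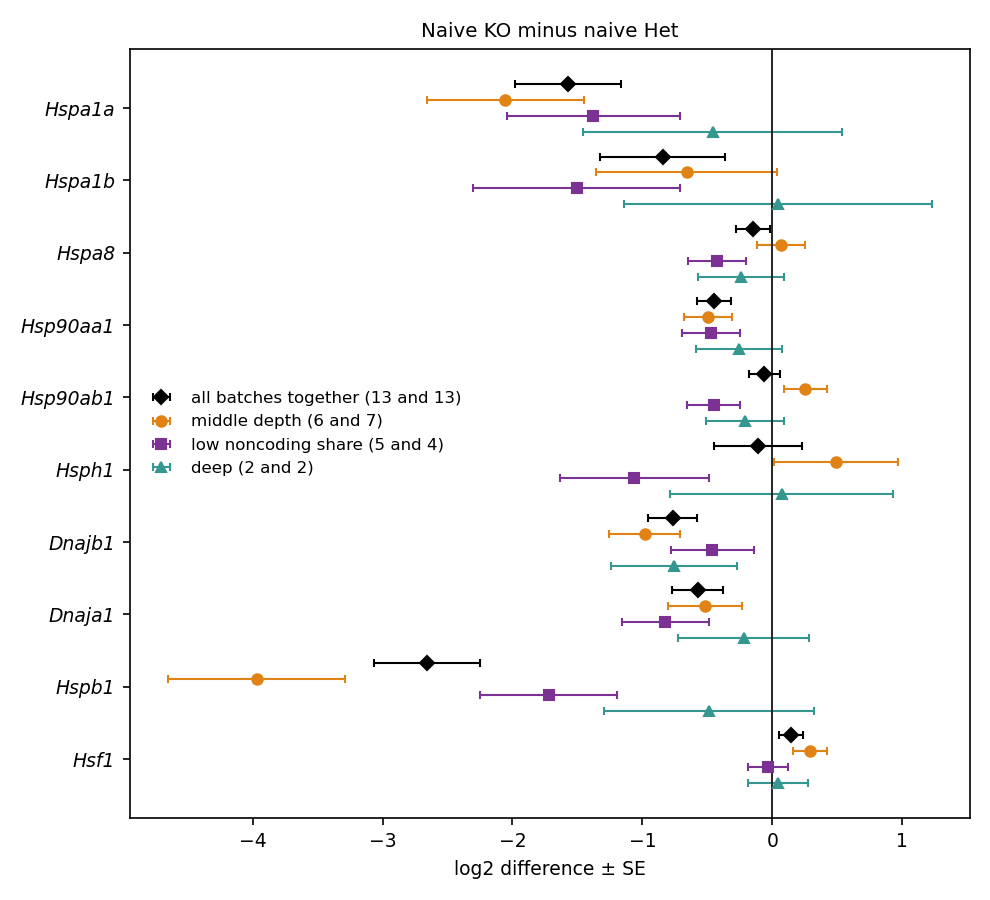
Log2 difference of naive KO against naive Het for the 10 members in each batch; bars are SE of the fit. Hspb1 lies lowest in the middle-depth batch at -3.97, and all 10 members lie below 0 in the low-noncoding batch.

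Immediate early genes were lower in naive KO too, though not in every batch. Of the 20, 15 fell in naive KO, among them Klf4 by 2.02 ± 0.28 (adjusted p = 1.7e-07), Fosb by 2.29 ± 0.40 (adjusted p = 2.45e-05) and Klf6 by 0.98 ± 0.14 (adjusted p = 5.86e-07). In the middle-depth batch 19 fell, with sums of 1793 to 4484 CPM in KO and 6696 to 15990 CPM in Het. In the low-noncoding batch none passed, at sums of 1780 to 12950 CPM in KO and 4596 to 5024 CPM in Het, and the median log2 difference was 0.11. The members' median was -0.50 in the middle-depth batch and -0.65 in the low-noncoding batch. Within the low-noncoding batch KO 5, Het 1 to 4 and WT 5 follow one another in the sample order and stand apart from KO 1 to 4 and WT 1 to 4. KO and WT thus hold libraries of both kinds, and Het of 1 kind only. For KO 1 to 4 against Het, genotype and place in the sample order therefore cannot be told apart. By the sex inferred from the counts, low-noncoding naive KO held 1 female and 4 male libraries, and Het held 3 female and 1 male. Sex therefore also differs between these groups. The low-noncoding batch had a weight of 0.344 in the comparison over all batches. In this batch border macrophage markers summed to 179 to 584 CPM in KO against 544 to 841 CPM in Het and endothelial markers to 97.4 to 349 CPM in KO against 197 to 565 CPM in Het. Over all batches the endothelial marker Pecam1 fell by 1.09 ± 0.20 in naive KO (adjusted p = 3.48e-05). In the middle-depth batch it fell by 1.21 ± 0.28 (adjusted p = 0.0021). Flt1, Kdr and Cdh5 passed in neither comparison. The part of these cells was not tested.

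Other chaperone lists gave mixed results in naive KO against Het. Of 6 mitochondrial chaperones 4 rose, led by Hspa9, the HSP70 of the mitochondrial matrix, by 0.60 ± 0.07 (adjusted p = 1.61e-08), and by Hspe1, the small chaperonin subunit, by 0.53 ± 0.13 (adjusted p = 0.0017). Of 8 TRiC subunits 4 rose, among them Cct2 by 0.48 ± 0.08 (adjusted p = 1.49e-05). Of 12 ER chaperones 6 fell, among them Hspa5 by 0.59 ± 0.11 (adjusted p = 7.07e-05) and Dnajb9, its J protein, by 0.53 ± 0.09 (adjusted p = 1.48e-05). Of 15 HSP70 co-chaperones 1 fell, the J protein Dnajb4 (by 1.17 ± 0.18, adjusted p = 3.15e-06), and 2 rose, the exchange factor Bag1 (0.57 ± 0.10, adjusted p = 1.37e-05) and the ubiquitin ligase Stub1. Of 13 HSP90 co-chaperones 2 rose, Cdc37 and Fnip1. None of the 6 other small heat shock proteins and of 5 other HSP70 and HSP110 genes passed. Neither did the heat shock factors Hsf2 and Hsf4 or the HSF regulator Hsbp1. Of the small heat shock proteins, Hspb1 alone was called in this comparison.

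Naive KO and WT could be compared in the low-noncoding batch only. None of the 10 members passed (1.93% of all genes did), 1 was at an unadjusted p below 0.05 and DESeq2 called 0. That one was Hspb1, with 14.4, 3.16, 5.62, 6.19 and 7.45 CPM in KO against 13.6, 14.4, 9.89, 14.7 and 23.1 CPM in WT, a log2 difference of -1.04 ± 0.50 (adjusted p = 0.42). Hspa1a differed by 0.23 ± 0.63 (adjusted p = 0.974), with 47.6 to 331 CPM in KO against 58.0, 199, 58.1, 76.0 and 540.2 CPM in WT. Much of the spread of WT is that of 1 library: WT 5 was above the other 4 for all 10 members, and for Hsph1 it had 117 CPM against 9.95 to 20.5. For Hspa1a, WT 2 with 199 CPM also stood above WT 1, 3 and 4. Hspa9 (0.49 ± 0.12, adjusted p = 0.0156) and Dnaja3 (0.39 ± 0.10, adjusted p = 0.029) rose among the mitochondrial chaperones.

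The estimates of all 10 members were higher in naive Het than in WT, but none passed (0.0217% of all genes did; DESeq2 called 0). At an unadjusted p below 0.05 were 8 of the 10, and the median log2 difference was 0.70 (-0.03 over all genes). Hspa8 had 1745, 1773, 2040 and 1952 CPM in Het against 853, 973, 1056, 1217 and 1697 CPM in WT, which do not overlap (1.55% of all genes were higher without overlap). Its log2 difference was 0.70 ± 0.22 (adjusted p = 0.288). Hspa1a differed by 1.61 ± 0.67 (adjusted p = 0.50). Without WT 5, Hsp90aa1, Hsph1, Dnajb1 and Dnaja1 passed, and 0.635% of all genes did. All 4 Het libraries belong to the stretch of the sample order that WT 5 shares, so for the other 4 WT libraries genotype and that stretch cannot be told apart. By the sex inferred from the counts, Het held 3 female and 1 male libraries and WT 5 male ones only, so sex differs as well.

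In PLX3397 depletion the estimates for the inducible HSP70s were below the naive level in KO and Het and above it in WT. Hspa1a had 115 and 187 CPM in depletion KO and 218 and 144 CPM in depletion Het, against 1177, 562, 189 and 175 CPM in depletion WT. The log2 difference from the low-noncoding naive libraries was -0.53 ± 0.86 in KO, -1.65 ± 0.93 in Het and 1.498 ± 0.67 in WT. No member passed 2-fold in KO (8.82% of all genes were higher, 11.5% lower), 2 were at least 2-fold lower in Het (12.6%) and 3 at least 2-fold higher in WT (8.45%). In Het 7 members were lower without overlap (14.5%). Medians were -0.19 in KO, -0.67 in Het and 0.58 in WT. The WT value is set by depletion WT 1 and 2, with 2384 and 1213 CPM of the HSP70 sum against 415 and 372 CPM in WT 3 and 4. Each of these differences rests on the naive libraries of the same genotype, with the same stretch of naive Het, KO 5 and WT 5: without WT 5 the WT median was 0.98.

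In repopulation Hspa1a had 329, 387, 789 and 367 CPM in KO, 148, 489, 431 and 2378 CPM in Het, and 215, 333, 695 and 1230 CPM in WT. The differences from naive libraries were 1.10 ± 0.67 in KO, 0.60 ± 0.70 in Het and 1.73 ± 0.67 in WT. Only Hspa1a and Hspa1b passed 2-fold, in KO (7.4% of all genes) and WT (8%), and no member did in Het (13.2% higher, 7.85% lower). Hspa8, Hsp90ab1, Dnaja1 and Hsf1 were lower in repopulation Het without overlap (7.92%), with log2 differences of -0.49 ± 0.24, -0.57 ± 0.21, -0.84 ± 0.36 and -0.21 ± 0.16. As in depletion, the differences in Het rest on low-noncoding naive libraries that all belong to the stretch of the sample order described above. Medians were -0.05 in KO, -0.35 in Het and 0.34 in WT, and the HSP70 pair had the highest estimates in each genotype. Markers of border macrophages moved with both phases of PLX3397. Their sum was 57.5 to 115 CPM in depletion KO, 64.7 to 77.1 CPM in depletion Het and 88.0 to 183 CPM in depletion WT, and 33.1 to 84.8 CPM in repopulation KO, 43.3 to 72.4 CPM in repopulation Het and 29.9 to 77.4 CPM in repopulation WT. The low-noncoding naive libraries held 179 to 584 CPM (KO), 544 to 841 CPM (Het) and 549 to 1268 CPM (WT), above every PLX3397 library of the same genotype. The defining marker Mrc1 differed from naive by -2.38 ± 0.64 in KO, -3.51 ± 0.69 in Het and -2.70 ± 0.49 in WT at depletion, and by -2.99 ± 0.49 in KO, -3.81 ± 0.52 in Het and -4.05 ± 0.52 in WT at repopulation. The part of these cells in the chaperone differences was not tested. Library repopulation Het 4 held 4865 CPM of the HSP70 sum, where the highest cuprizone Het library held 4933 CPM, and 15220 CPM of immediate early genes where the other 3 had 4088 to 5254.

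**Figure D5:**
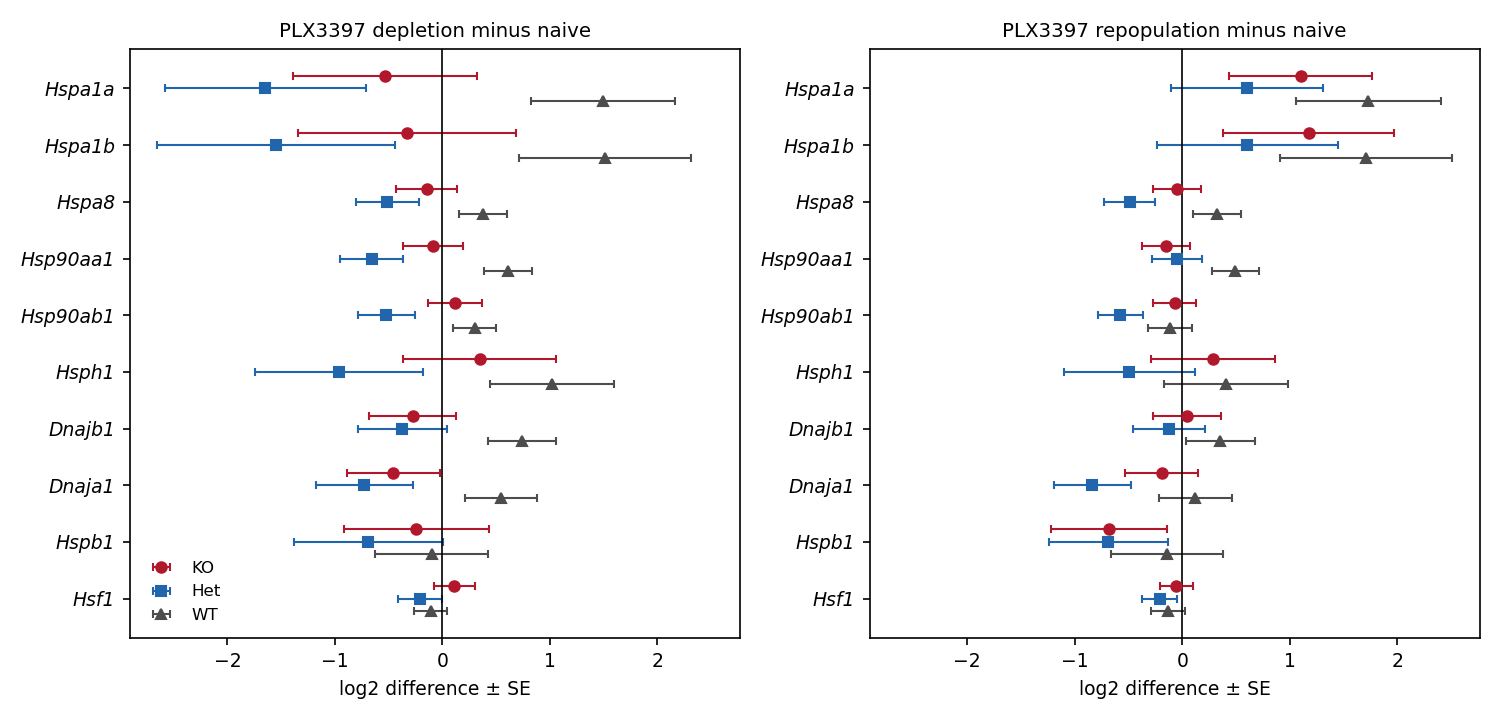
Log2 differences of the 10 members in PLX3397 depletion and repopulation against the low-noncoding naive libraries of the same genotype. Bars are SE of the fit. Hspa1a and Hspa1b lie at 1.498 to 1.73 in both phases in WT, and at -1.65 and -1.54 in depletion Het.

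The genotypes were also compared within each PLX3397 phase, KO against the mean of Het and WT. In depletion none of the 10 passed (1.72% of all genes did), none was at an unadjusted p below 0.05 and DESeq2 called 0. The monocyte marker Chil3 was higher in depletion KO by 6.69 ± 1.42 (adjusted p = 0.0046), while Ccr2, Plac8 and Ly6c2 had negative estimates that did not pass. The neutrophil markers S100a8, S100a9, Ngp and Camp had estimates of 3.03 to 5.44 and did not pass. The part of such cells was not tested. In repopulation Hspb1 fell by 1.65 ± 0.52 (adjusted p = 0.0406; 3.45% of all genes fell). It had 4.57, 3.20, 5.91 and 4.68 CPM in KO against 4.87, 8.15, 12.1 and 35.1 CPM in Het and 9.49, 8.97, 14.1 and 22.4 CPM in WT. All KO libraries were below all WT libraries, and 1 Het library lay in the KO range. Over the 12 fits that each left out 1 library the log2 difference ran over -1.79 to -1.22, and in 7 of them the call was lost, with adjusted p-values up to 0.143. The other 9 members did not pass, among them Hsp90aa1 (-0.50 ± 0.21, adjusted p = 0.146) and Hspa1a (-0.64 ± 0.63, adjusted p = 0.648). Of the endothelial markers, Pecam1 (-1.02 ± 0.32, adjusted p = 0.0349) and Cldn5 (-1.46 ± 0.47, adjusted p = 0.0409) fell in the same comparison. Flt1, Kdr and Cdh5 had negative estimates that did not pass. The part of endothelial cells in the Hspb1 difference was not tested.

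Other chaperones changed in KO in the PLX3397 phases. In repopulation, of 12 ER chaperones 7 fell, led by Calr, a lectin chaperone, by 0.91 ± 0.11 (adjusted p = 6.29e-08). Of 6 mitochondrial chaperones 3 rose, led by Hspa9 by 1.09 ± 0.11 (adjusted p = 2.5e-10). Of 8 TRiC subunits 3 rose (4.01% of all genes did), and of 15 HSP70 co-chaperones Bag1 rose by 0.73 ± 0.15 (adjusted p = 0.0004). In depletion 6 of the 12 ER chaperones fell and Hspa9 rose by 0.57 ± 0.15 (adjusted p = 0.0353).

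With age all 10 members had lower estimates in Het, and none passed (5.37% of all genes did; 1, Hsf1, was at an unadjusted p below 0.05, and DESeq2 called 0). Hspa1a had 130.2, 63.9 and 47.9 CPM in old libraries against 269 and 294 CPM in adult ones, a log2 difference of -1.80 ± 0.90 (adjusted p = 0.325). Hsf1 had 15.04, 15.03 and 15.3 CPM in old libraries against 20.9 and 19.98 CPM in adult ones (-0.44 ± 0.21, adjusted p = 0.293). Hsp90aa1, at 571, 454 and 580.0 CPM in old libraries against 684 and 877 CPM in adult ones, differed by -0.54 ± 0.30 (adjusted p = 0.396). In all, 6 members were lower without overlap, where 16.9% of all genes were. Of 12 ER chaperones Pdia4, Pdia6 and Calr fell, and Hspa9 rose by 0.71 ± 0.17 (adjusted p = 0.0066).

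Across libraries the members varied together. After the mean of each group and batch was taken off, the 45 pairs had Pearson correlations of -0.0003 to 0.795 over the 64 libraries, with a median of 0.46, and 44 were positive. These points share depth and handling within a library. The closest pairs were Dnaja1 with Hsph1 (0.79), Hsp90ab1 with Hsph1 (0.78) and Hsp90ab1 with Hspa8 (0.77). The 2 copies Hspa1a and Hspa1b reached 0.68. With the mean of the 20 immediate early genes the correlations were low for Dnaja1 (0.04) and Hspb1 (0.09), 0.36 for Hspa1a and highest for Hsf1 (0.50). Of 8588 other genes, those most like the HSP70 sum were Upf2 (0.66), Pmaip1 (0.62), Prpf38b (0.61), Akap8 (0.61) and Hmox1 (0.60). Those most like Hspa8 were P4ha1 (0.77), Ubqln1 (0.76), Stip1 (0.74), Hspa5 (0.72) and Bag3 (0.72).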

How the data were processed

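Per the labels' protocols, microglia were sorted and stranded total RNA libraries were made from 5 to 10 ng of RNA and sequenced single-end, on different sequencer models for different groups. Per the submitters' processing notes, bcl2fastq 2.20, Trim Galore 0.6.7, STAR 2.6.1d and Salmon 1.5.2 were used with GRCm38. The deposited values are whole-number counts per gene. Which tool counted them is not given in the sources used here. Gene positions come from GENCODE M21 (GRCm38).

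The members and lists were chosen with earlier results of these data known. The counts were fitted with edgeR 4.0.16 (R 4.3.3): filterByExpr by group and batch (minimum count 10, total 15), TMM, 1 mean per group and batch over 64 libraries, quasi-likelihood test, two-sided, Benjamini-Hochberg over 18413 genes, threshold 0.05. Batches were set from library totals and noncoding share. CPM values are counts scaled to 1000000 with the TMM library sizes. DESeq2 1.42.0, its size factors, other filters, batch pooling, a replicate block and leaving out each library were the alternatives. On simulated counts the naive KO against Het test recovered 91.8% of 2-fold changes. The simulation changed only well-covered genes and took each gene's spread from the trend over genes. The rate therefore does not carry over to members with few reads, such as Hspb1. All members, the targeted gene, some leading genes of the lists and the genes most like the HSP70s are named. Not all called genes of the lists are. Left out were, for instance, the microglia marker Tmem119, called lower in naive KO than in Het, and Ccr2 and Snap25, called lower in naive KO than in WT. Hsf4 was called higher in old than in adult Het libraries.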

Additional observations from a re-analysis of the deposited data

Results flagged for a closer look

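Each member was checked in the groups of 4 to 10 libraries for a highest or lowest library that stood apart from the rest by Dixon's criterion. Of 110 such groups 20 held one, in 11 libraries, and chance alone flags about 1 in 20 groups. No cause was tested.

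Under cuprizone, KO 6 stood above the other 5 KO libraries with 1141 CPM of Hspa1a (others 232 to 467) and 1239 CPM of Hspa1b (others 179 to 438). Het 1 had 93.7 CPM of Hspb1, where the other 3 had 28.2 to 35.0.

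In the middle-depth naive batch, Het 11 was high for 4 members: 162 CPM of Hspa1b (others 1.08 to 38.3), 1978 CPM of Hspa8 (others 888 to 1324), 168 CPM of Hsph1 (others 19.1 to 43.5) and 220.2 CPM of Dnaja1 (others 82.9 to 132). KO 10 was high for both J proteins, with 73.4 CPM of Dnajb1 (others 29.1 to 43.5) and 183 CPM of Dnaja1 (others 54.7 to 85.7). KO 7 had 0.738 CPM of Hspb1 (others 0 to 0.216), which is 6 reads.

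In the low-noncoding naive libraries, WT 5 had 589 CPM of Hspa1b (others 57.3 to 196), 117 CPM of Hsph1 (others 9.95 to 20.5), 185 CPM of Dnajb1 (others 57.9 to 66.2) and 305 CPM of Dnaja1 (others 70.6 to 111). Het 3 had 26.6 CPM of Hsf1 (others 24.5 to 24.8).

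In repopulation, Het 4 had 2378 CPM of Hspa1a (others 148 to 489) and 2487 CPM of Hspa1b (others 187 to 567). KO 3 had 789 CPM of Hspa1a (others 329 to 387), KO 1 had 163 CPM of Dnaja1 (others 95.1 to 103) and WT 4 had 145 CPM of Dnajb1 (others 97.3 to 100.0).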

How the results depend on the processing

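The 5 calls in naive KO against Het remained with DESeq2's Wald test, DESeq2 size factors, no filter on low counts, a fit of only the libraries compared, sex inferred from the counts as a covariate, and the replicate block (fitted on only the libraries compared), which gave 5 and moved 2 other results: naive Het against WT had 8 calls instead of 0, and the depletion median in Het was -0.42 instead of -0.67. With Hspa1a and Hspa1b summed, 4 of the 5 were kept and the sum passed. Without regard to batch there were 0 calls in naive KO against Het, 2 in KO against WT, 1 in Het against WT, 2 in old against adult Het and 0 at repopulation (KO against controls), and the depletion median in Het was -0.21; the cause was not tested. The cuprizone median of KO against Het (-1.88) was -0.88 in libraries below 3% noncoding counts and -2.28 above 3%; these divisions were chosen after seeing the data. Leaving out each library gave 4 to 5 calls in naive KO against Het, 0 to 4 in Het against WT (4 without WT 5), 0 to 1 at repopulation and 0 to 0 in KO against WT, in old against adult Het and in depletion. Medians ran over -2.08 to -1.68 (KO against Het under cuprizone), 0.268 to 0.565 and 1.59 to 1.85 (cuprizone against naive, KO and Het), -0.308 to -0.0807, -0.728 to -0.535 and 0.267 to 0.975 (depletion against naive, KO, Het and WT), and -0.118 to 0.0299, -0.645 to -0.178 and 0.205 to 0.706 (repopulation against naive, KO, Het and WT). No result changed sign past its threshold. For single members, 934 of 1052 values under other settings and 1484 of 1580 with a library left out kept their direction and call or, where not tested, moved by less than 1 SE. Same-numbered libraries did not deviate together in every pair of any comparison, so the numbers were not used as pairs. No paired analysis was possible for old against adult Het or for cuprizone against naive because these groups share fewer than 2 replicate numbers. Cuprizone libraries hold 2.70 M to 5.10 M counts (M is 1000000), so Hspb1 in KO rests on 6 to 12 reads a library. In simulated depletion libraries 36.4% of 2-fold changes in well-covered genes were recovered, so the absence of calls there says little.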
